A study of Mus musculus with 12 samples.

Results

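The genes described here are 36 members of the amino acid stress response run by the transcription factor ATF4, with the serine, folate one-carbon and methionine enzymes that this response feeds. They were taken by gene symbol from a fixed list, which was chosen with earlier results of these data known. All 36 were found among the 32051 genes of the expression table and passed the filter on low values (a mean of at least 0.1 FPKM, fragments per kilobase of gene, scaled to the size of the library), which left 13733 genes for testing. By role, the list holds 7 transcription factors, 4 kinases of the translation factor eIF2α, 7 stress effectors, 3 enzymes of serine synthesis, 6 of folate one-carbon metabolism, 5 of other amino acid synthesis and 4 of the methionine cycle and transsulfuration. RNA was sequenced from Th9 cells, the IL-9-producing class of helper T cells, made from naive CD4+ T cells of the C57BL/6J mouse spleen. Every culture received plate-bound anti-CD3, soluble anti-CD28, IL-4 at 10 ng/mL, TGF-β at 1 ng/mL and antibodies against IL-12 and IFN-γ, and RNA was taken on day 4. Of the 4 groups, each of 3 libraries, DMSO held the solvent only, EpA held endomelipeptide A, a cyclic peptide from a fungus, at 10 μM, the fatostatin group held the solvent and fatostatin, an inhibitor of the lipogenic factor SREBP, at 5 μM, and the fourth held both compounds; these doses are those of the study's methods. Per the study's methods the mice were 6 to 8 weeks old. Their number is not given in the sources used here, nor whether replicates came from separate mice or cultures, though the study calls its sequenced Th9 samples independent. The p-values therefore measure only the spread between these libraries, which may be technical. The design asks how EpA changed Th9 cells and what of that change remained when SREBP was inhibited.

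When amino acids run short, unfolded proteins collect or mitochondria fail, the kinases GCN2, PERK, PKR and HRI phosphorylate eIF2α, which slows protein synthesis in general and raises the translation of ATF4 through short reading frames upstream of its own. ATF4 then pairs with C/EBP proteins at C/EBP-ATF response elements and raises genes that make, import and charge amino acids, among them the serine pathway. In activated T cells, which divide fast, serine and folate one-carbon enzymes are known to supply carbon for purines and thymidylate. Because ATF4 is controlled largely in translation, RNA levels show this factor only in part.

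Promoters are shown for the members that changed by at least 1.5-fold, Sesn2, Chac1, Trib3 and Vldlr, so that the start regions of the genes that moved farthest can be read beside their values. Each runs from 250 bases before the transcription start to 50 after it, on the strand of the gene, from the RefSeq annotation of GRCm38.p6. Capitals mark a match to TGATGNAA, the C/EBP-ATF response element, or to its reverse complement.
Sesn2, chr4:132510407-132510706, minus strand: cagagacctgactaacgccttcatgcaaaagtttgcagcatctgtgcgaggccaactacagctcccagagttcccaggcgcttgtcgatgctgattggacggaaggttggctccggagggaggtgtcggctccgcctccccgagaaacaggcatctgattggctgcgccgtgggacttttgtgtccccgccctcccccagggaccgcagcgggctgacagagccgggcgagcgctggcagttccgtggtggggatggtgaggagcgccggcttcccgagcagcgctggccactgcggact
Chac1, chr2:119350992-119351291, plus strand: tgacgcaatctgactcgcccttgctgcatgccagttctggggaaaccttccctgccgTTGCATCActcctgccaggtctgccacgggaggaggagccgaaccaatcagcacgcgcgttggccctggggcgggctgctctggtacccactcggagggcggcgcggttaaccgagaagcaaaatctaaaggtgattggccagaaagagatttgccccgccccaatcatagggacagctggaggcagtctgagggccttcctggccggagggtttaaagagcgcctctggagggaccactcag
Trib3, chr2:152344011-152344310, minus strand: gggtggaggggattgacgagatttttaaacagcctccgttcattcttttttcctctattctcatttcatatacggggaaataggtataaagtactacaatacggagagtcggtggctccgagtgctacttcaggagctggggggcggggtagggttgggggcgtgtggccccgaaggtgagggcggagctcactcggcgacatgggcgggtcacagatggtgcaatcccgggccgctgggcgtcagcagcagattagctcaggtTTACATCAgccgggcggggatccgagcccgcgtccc
Vldlr, first start, chr19:27216234-27216533, plus strand: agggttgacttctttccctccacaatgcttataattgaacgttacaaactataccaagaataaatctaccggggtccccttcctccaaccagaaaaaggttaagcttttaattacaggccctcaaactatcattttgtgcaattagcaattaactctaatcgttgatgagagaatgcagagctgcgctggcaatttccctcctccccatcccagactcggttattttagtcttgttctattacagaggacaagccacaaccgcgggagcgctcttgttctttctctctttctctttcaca
Vldlr, second start, chr19:27216770-27217069, plus strand: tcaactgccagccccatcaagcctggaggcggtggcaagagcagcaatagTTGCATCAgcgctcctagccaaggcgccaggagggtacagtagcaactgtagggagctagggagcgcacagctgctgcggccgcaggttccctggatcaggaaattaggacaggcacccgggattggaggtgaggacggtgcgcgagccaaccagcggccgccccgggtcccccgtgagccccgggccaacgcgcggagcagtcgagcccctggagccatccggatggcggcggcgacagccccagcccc

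Both strands of 300-base promoters were searched for TGATGNAA and for CACGTG, the E-box, which reads the same on either strand. Of the 36 members, 33 had a promoter in the table; Eif4ebp1, Aldh1l2 and Cth are named only. TGATGNAA was present in 8 of these 33 members, or 24.2%, against 4.51% of the 27025 genes of the table. The list was drawn up from genes of the ATF4 response, so this share describes how the members were chosen as much as their promoters. Among the 4 genes shown above, the match began 193 bases before the start in Chac1, 14 bases after it in Trib3 and 200 bases before the second start in Vldlr, and Sesn2 had none. CACGTG was present in 3 of 33 members (9.09%; Aldh18a1, Cbs and Nupr1) against 8.09% of genes. No TGATGNAA match in a member shared bases with a CACGTG match. The other 5 members with a match are shown as 60-base windows around it, chosen because they hold the element.
Asns, chr6:7693199-7693258, minus strand: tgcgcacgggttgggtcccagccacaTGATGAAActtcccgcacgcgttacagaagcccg
Got1, chr19:43524674-43524733, minus strand: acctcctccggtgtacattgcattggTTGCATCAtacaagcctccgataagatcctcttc
Jdp2, chr12:85599357-85599416, plus strand: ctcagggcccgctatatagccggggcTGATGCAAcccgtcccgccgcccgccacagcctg
Nupr1, chr7:126625547-126625606, minus strand: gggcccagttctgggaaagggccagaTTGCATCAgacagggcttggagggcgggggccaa
Pycr1, chr11:120643818-120643877, minus strand: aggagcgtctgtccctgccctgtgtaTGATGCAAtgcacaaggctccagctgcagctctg

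Between 36019739 and 43656682 reads lay on the genes of each library. The cells carried T cell RNA: all 9 T cell markers found (Cd3e, Cd3d, Cd3g, Cd4, Cd28, Cd5, Lck, Zap70 and Lat) had a mean of 19.3 FPKM or more over the 12 libraries. Their summed level was 715 to 722 FPKM in DMSO, 638 to 643 in EpA, 691 to 713 with fatostatin and 616 to 625 with both compounds, so it was lower in the groups that held EpA. The summed level of 2 CD8 markers was 6.98 to 10.2 FPKM, that of 6 B cell markers 5.22 to 8.71 and that of 7 myeloid markers 1.33 to 1.46 in DMSO and 1.95 to 3.06 with both compounds. All 5 NK cell markers had a mean under 1 FPKM over the 12 libraries, with sums of 1.56 to 1.79 in DMSO and 0.841 to 0.945 in EpA. So did the 5 neutrophil and mast cell markers and the 5 erythroid markers. No marker was at 0 in every library. The part of these shifts in the results was not tested, and in bulk RNA fewer cells of a type and less RNA per cell cannot be told apart.

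EpA raised more of the 36 genes than it lowered, and fatostatin lowered more than it raised. Against DMSO, EpA gave higher levels of 14 members and a lower level of 1, where 14.3% of all tested genes were higher and 13.1% lower; the median log2 change was 0.11 over the members and 0.00 over all tested genes. In the presence of fatostatin, EpA gave higher levels of 17 members and a lower level of 1, against 16.2% and 13.3% of all genes, with a median of 0.17 over the members and 0.01 over all. Passing here means a Benjamini-Hochberg adjusted p under 0.05 from limma, adjusted over the 13733 genes. Here and below, the members and all tested genes were not matched for expression level. Smaller changes can pass in abundant genes: the SE was 0.02 for Atf4, at a mean of 93.7 FPKM, and 0.22 for Nupr1, at 0.433. Permuting 3 libraries against 3 allows no exact p under 0.1 for a gene on its own, so only the fit across all genes was used.

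Fatostatin alone lowered 14 members and raised 2, where 6.31% of all tested genes were lower and 7.69% higher, and the medians were -0.07 over the members and 0.01 over all genes. Added to EpA, fatostatin lowered 12 members and raised 2, against 6.79% and 9.22% of all genes, with medians of -0.05 and 0.01. The group with both compounds had 9 members higher and 9 lower than DMSO, against 19.7% and 15.8% of all genes, with a median of 0.02 over the members and the same over all genes.

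Most of these changes were small. A change of at least 1.5-fold that also passed the test was made by no member for EpA against DMSO (background 3.38%), by 3 for fatostatin against DMSO (Sesn2, Chac1 and Trib3; 1.86%), by 2 for both compounds against EpA (Sesn2 and Chac1; 1.99%), by 1 for both compounds against fatostatin (Vldlr; 3.75%) and by 2 for both compounds against DMSO (Sesn2 and Chac1; 5.64%). Fold changes are on the log2(FPKM + 0.1) scale, which understates the change of low genes. With 1 added in place of 0.1, Sesn2 alone reached 1.5-fold for fatostatin against DMSO.

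**Figure D1:**
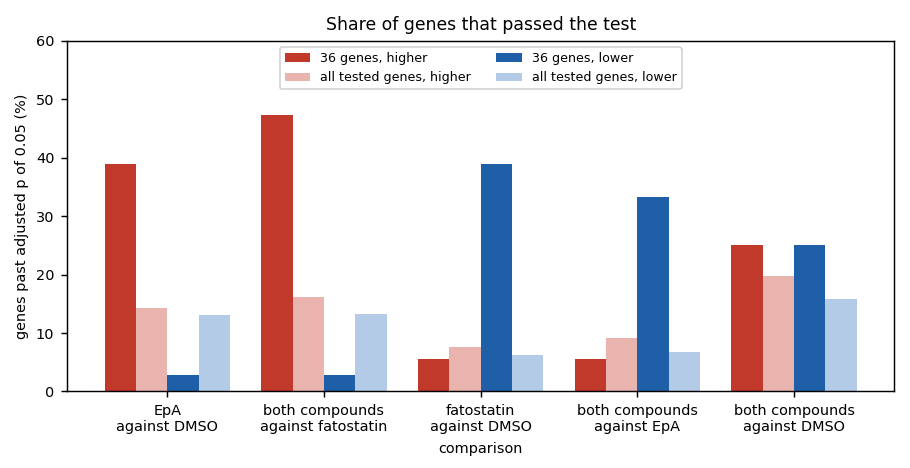
Percent of the 36 genes and of all 13733 tested genes that were higher (red) or lower (blue) at an adjusted p under 0.05 in 5 comparisons; dark bars are the 36 genes and pale bars all tested genes. Among the 36 genes, 38.9% and 47.2% were higher in the 2 comparisons that add EpA, and 38.9% and 33.3% were lower in the 2 that add fatostatin.

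Each compound's effect was measured in 2 comparisons that share no library, once without and once with the other compound. Of the 14 members higher with EpA alone, 13 (92.9%) were also higher when EpA was added to fatostatin, which is 76.5% of the 17 found there: Atf4, Sesn2, Eif4ebp1, Vldlr, Psph, Shmt1, Shmt2, Mthfd1, Mthfd1l, Asns, Gpt2, Got1 and Ahcy. Of the 14 members lower with fatostatin alone, 12 (85.7%) were also lower when it was added to EpA, and these were all 12 found there: Atf4, Jdp2, Chac1, Trib3, Eif4ebp1, Psat1, Shmt2, Mthfd2, Asns, Gpt2, Aldh18a1 and Mat2a. No member passed in opposite directions in a pair. Across the 36 genes, which are not independent replicates, the 2 estimates of the EpA effect had a Pearson r of 0.76 (Spearman 0.74), and 32 had the same sign. The 2 estimates of the fatostatin effect had a Pearson r of 0.90 (Spearman 0.78), and 28 had the same sign. Over all 13733 tested genes, of the genes higher with EpA alone 76.1% were also higher on fatostatin, of those lower with fatostatin alone 62.8% were also lower on EpA, r was 0.48 and 0.35, and 76.7% and 71.0% of genes had the same sign. In the other directions few members passed: the 1 lower with EpA alone did not pass on fatostatin, and 1 of the 2 higher with fatostatin alone was also higher on EpA, where the shares over all genes were 71.0% and 69.5%. The difference between the members and all genes was not tested.

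Only 6 of all tested genes (0.0437%) differed in their response to EpA with and without fatostatin, and no member was among them by limma or by voom on the recovered reads, while 5 of the 36 had an unadjusted p under 0.05. The members' differences ran from -0.18 to 0.45 on the log2 scale, and each was too uncertain to call. Sesn2 gave -0.16, the EpA effect with fatostatin minus that without it (95% confidence interval -0.28 to -0.05; limma adjusted p = 0.448). Asns gave 0.10 (0.03 to 0.17, adjusted p = 0.426). The interval of Atf4 was -0.04 to 0.10 and that of Vldlr -0.14 to 0.39.

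**Figure D2:**
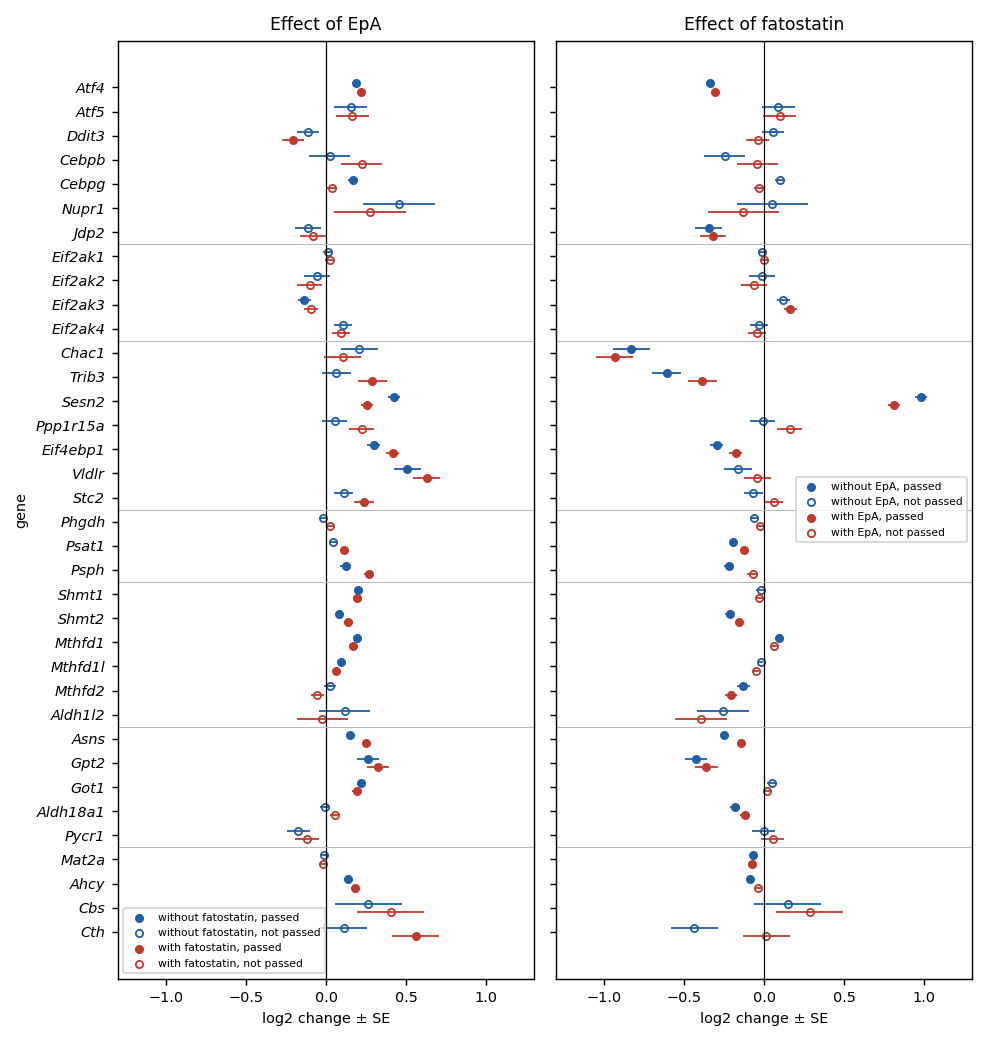
Log2 change ± SE of each gene with EpA (left) and with fatostatin (right), without the other compound (blue) and with it (red); filled points had an adjusted p under 0.05 and grey lines part the 7 roles. Most EpA points lie right of 0, most fatostatin points left of 0, and Sesn2 stands apart at 0.98 and 0.81 in the fatostatin panel.

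Atf4, the gene of the factor itself, rose with EpA and fell with fatostatin. Its FPKM was 98.3, 95.4 and 98.4 in DMSO, 110.01, 111.6 and 111.5 in EpA, 76.5, 78.3 and 75.8 with fatostatin and 87.2, 89.9 and 91.6 with both compounds. None of the 4 groups overlapped another, and they stood in the order fatostatin, both compounds, DMSO, EpA. The change was 0.19 ± 0.02 (log2 ± SE, adjusted p = 7.22e-05) with EpA and -0.34 ± 0.02 (adjusted p = 1.39e-06) with fatostatin. EpA added to fatostatin raised Atf4 by 0.22 ± 0.02 (adjusted p = 2.09e-05), and both compounds together gave -0.12 ± 0.02 against DMSO (adjusted p = 0.00122). Over the 12 libraries between 7236 and 11136 reads lay on this gene, which is on chr15:80255184-80257541.

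Jdp2, a bZIP repressor that can occupy ATF sites, fell with fatostatin. Its FPKM was 9.37, 8.67 and 9.73 in DMSO, 8.59, 8.90 and 8.17 in EpA, 7.56, 6.56 and 7.65 with fatostatin and 6.19, 6.66 and 7.71 with both compounds. All 6 libraries with fatostatin lay under all 6 without it. The log2 change was -0.35 ± 0.08 with fatostatin alone (adjusted p = 0.0151) and -0.32 ± 0.08 when it was added to EpA (adjusted p = 0.0207), and the group with both compounds was the lowest, at -0.43 ± 0.08 against DMSO (adjusted p = 0.00164). The first of these missed 0.05 without DMSO replicate 1, DMSO replicate 3 or fatostatin replicate 2 (highest adjusted p = 0.0611), and the second without EpA replicate 1 or 2 or replicate 1 or 2 of both compounds (highest 0.0783).

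Cebpg, a C/EBP partner of ATF4, was 12.2 ± 0.2 FPKM in DMSO (mean ± SD, n = 3) and 13.7 ± 0.1 in EpA, a rise of 0.17 ± 0.03 (adjusted p = 0.00207), and it was also higher with both compounds than in DMSO (0.13 ± 0.03, adjusted p = 0.00590). Added to fatostatin, EpA gave 0.03 ± 0.03 (adjusted p = 0.466), and Cebpg was the 1 member higher with EpA alone that did not pass there. Its difference between the EpA effects was -0.13 (interval -0.23 to -0.04), which did not pass (adjusted p = 0.466). Ddit3, which encodes the pro-apoptotic factor CHOP, did not follow Atf4. Its FPKM was 7.26, 7.601 and 7.29 in DMSO, 6.85, 6.36 and 7.28 in EpA, 6.99, 8.23 and 7.83 with fatostatin and 6.81, 6.11 and 6.98 with both compounds. The group with both compounds lay just under the fatostatin group, without overlap. That change, -0.21 ± 0.07 (adjusted p = 0.0440), was the only one that passed, and it missed 0.05 in 13 of 22 alternative fits, among them those without DMSO replicate 1, 2 or 3, EpA replicate 1, fatostatin replicate 2 or 3, or replicate 1 or 2 of both compounds (highest adjusted p = 0.158). Of its exon bases, 10.9% are shared with other entries: Mars and Gm4189 on the opposite strand and a further entry named Ddit3 on the same strand. The strand setting of the counting is not given in the sources used here. Atf5, a close relative of Atf4 that is also translated under stress, ranged from 4.93 to 7.13 FPKM, Cebpb, a C/EBP partner, from 1.25 to 2.09 and the small chromatin protein gene Nupr1 from 0.304 to 0.714. None of these 3 passed in any comparison; the largest estimates were 0.25 (interval 0.02 to 0.48) for Atf5, -0.25 (-0.53 to 0.03) for Cebpb and 0.46 (-0.03 to 0.95) for Nupr1, and 20.7% of the exon bases of Cebpb are shared with Tmem189.

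**Figure D3:**
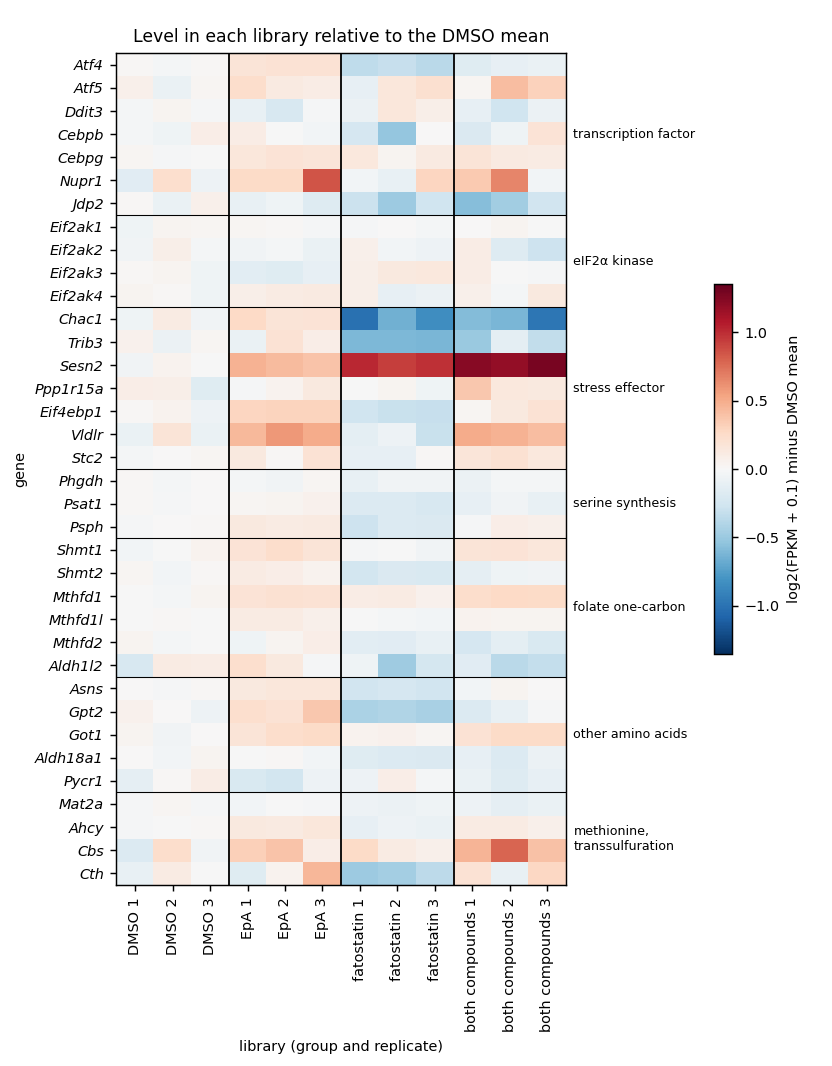
Level of the 36 genes in the 12 libraries as log2(FPKM + 0.1) minus the mean of the 3 DMSO libraries, from blue (lower) to red (higher); horizontal lines part the roles and vertical lines the 4 groups. Sesn2 is red in every library with EpA or fatostatin, while Chac1, Trib3 and Atf4 are blue in the libraries with fatostatin.

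The kinases of eIF2α moved little. Eif2ak1 (HRI, which senses heme and mitochondrial stress) kept group means of 12.9 to 13.1 FPKM, with an interval for EpA against DMSO of -0.05 to 0.07 on the log2 scale. Eif2ak2 (PKR, the double-stranded RNA sensor) ranged from 7.57 to 9.91 FPKM and Eif2ak4 (GCN2, which binds uncharged tRNA) from 5.27 to 6.25, and neither passed in any comparison. Eif2ak3 encodes PERK, the kinase of the endoplasmic reticulum, and fell slightly with EpA. Its FPKM was 6.19, 6.25 and 5.88 in DMSO, 5.53, 5.45 and 5.64 in EpA, 6.47, 6.69 and 6.77 with fatostatin and 6.53, 6.10 and 6.02 with both compounds. The EpA libraries were the 3 lowest of the 12. The log2 change was -0.14 ± 0.04 with EpA (adjusted p = 0.0270) and 0.16 ± 0.04 when fatostatin was added to EpA (adjusted p = 0.0189). These missed 0.05 without DMSO replicate 1 or 2 or EpA replicate 1 or 2 (highest adjusted p = 0.0906), and without EpA replicate 1 or 2 or replicate 1 of both compounds (highest 0.0698).

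Sesn2 rose with each compound alone and further with both, and it made the largest rise of any member with fatostatin and with both compounds against DMSO. It encodes sestrin 2, a leucine-binding protein that restrains mTORC1 and is known as a target of ATF4 and of p53. Its FPKM was 7.21, 7.70 and 7.40 in DMSO, 10.3, 10.0 and 9.71 in EpA, 15.2, 14.2 and 14.8 with fatostatin and 17.6, 17.1 and 18.2 with both compounds. The 4 groups formed separate steps in that order. EpA raised it by 0.42 ± 0.04 (adjusted p = 1.02e-05), fatostatin by 0.98 ± 0.04 (adjusted p = 2.64e-08) and both together by 1.24 ± 0.04 against DMSO (adjusted p = 1.31e-09), a ratio of group means of 2.37. Added to EpA, fatostatin raised it by 0.81 ± 0.04 (adjusted p = 1.09e-07), and EpA added to fatostatin by 0.26 ± 0.04 (adjusted p = 0.000368). Sesn2 was the only member that both compounds raised in all 4 of these comparisons, and all of its passing values kept their direction and passed in the 22 alternative fits.

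Chac1 and Trib3 fell with fatostatin. Chac1 encodes an enzyme that breaks down glutathione, and its FPKM was 2.32, 2.62 and 2.33 in DMSO, 2.93, 2.74 and 2.76 in EpA, 1.16, 1.502 and 1.31 with fatostatin and 1.58, 1.54 and 1.18 with both compounds. Each library with fatostatin lay under each library without it. The log2 change was -0.83 ± 0.12 with fatostatin alone (adjusted p = 0.000569), -0.93 ± 0.12 when it was added to EpA (adjusted p = 0.000229) and -0.73 ± 0.12 for both compounds against DMSO (adjusted p = 0.000496). EpA gave 0.21 (interval -0.05 to 0.46, adjusted p = 0.220) alone. The values rest on 79 to 191 reads a library, and the 1.5-fold calls of fatostatin and of both compounds against DMSO were lost with a pseudocount of 1, though both still passed the test.

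Trib3, whose protein is a pseudokinase that feeds back on ATF4, had FPKM values of 7.91, 7.18 and 7.74 in DMSO, 7.12, 8.73 and 8.09 in EpA, 4.95, 4.97 and 4.91 with fatostatin and 5.33, 6.94 and 6.02 with both compounds. Fatostatin alone gave the lowest and tightest group, and the group with both compounds lay between it and the others without overlap. Trib3 fell by 0.61 ± 0.09 on the log2 scale with fatostatin (adjusted p = 0.000870) and by 0.39 ± 0.09 when fatostatin was added to EpA (adjusted p = 0.0131). Without DMSO replicate 1 the drop with fatostatin was -0.58 and fell just short of 1.5-fold. Against fatostatin alone, both compounds gave 0.29 ± 0.09 (adjusted p = 0.0328), and against DMSO -0.32 ± 0.09 (adjusted p = 0.0160). The rise missed 0.05 in 8 of the alternative fits, among them those without any 1 of the fatostatin libraries or replicate 2 or 3 of both compounds (highest adjusted p = 0.117). The drop against EpA missed it without EpA replicate 2 (highest 0.0745), and the drop against DMSO without DMSO replicate 1 or replicate 1 of both compounds (highest 0.0601).

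With Sesn2, Vldlr and Eif4ebp1 made the 3 largest rises with EpA that passed. Vldlr encodes the very low density lipoprotein receptor, and its FPKM was 1.89, 2.28 and 1.89 in DMSO, 2.75, 3.06 and 2.89 in EpA, 1.83, 1.92 and 1.61 with fatostatin and 2.89, 2.81 and 2.72 with both compounds. The 6 libraries with EpA all lay above the 6 without it. The log2 rise with EpA was 0.51 ± 0.09 without fatostatin (adjusted p = 0.00111) and 0.63 ± 0.09 with it (adjusted p = 0.000227), while fatostatin gave -0.17 (interval -0.35 to 0.02) alone and -0.04 (-0.23 to 0.14) on EpA. Without DMSO replicate 2, the EpA effect was 0.59 and Vldlr became the 1 member called at 1.5-fold in that comparison. With a pseudocount of 1 its call in the presence of fatostatin was lost.

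Eif4ebp1, whose protein 4E-BP1 holds back cap-dependent translation, moved in opposite directions with the 2 compounds. Its FPKM was 18.8, 19.1 and 17.7 in DMSO, 22.6, 22.91 and 22.87 in EpA, 15.4, 14.99 and 14.87 with fatostatin and 18.9, 20.4 and 21.2 with both compounds. EpA was the highest group and fatostatin the lowest, and DMSO overlapped only the group with both compounds. The change was 0.30 ± 0.04 with EpA (adjusted p = 0.000240), -0.30 ± 0.04 with fatostatin (adjusted p = 0.000461), -0.18 ± 0.04 when fatostatin was added to EpA (adjusted p = 0.0110) and 0.42 ± 0.04 when EpA was added to fatostatin (adjusted p = 1.69e-05). Its small rise with both compounds over DMSO, 0.12 ± 0.04 (adjusted p = 0.0383), missed 0.05 in 12 of 22 alternative fits, among them those without DMSO replicate 1 or 3, any 1 EpA library or replicate 2 or 3 of both compounds (highest adjusted p = 0.146). Stc2, a secreted glycoprotein gene, rose by 0.24 ± 0.06 when EpA was added to fatostatin (adjusted p = 0.0116) and by 0.17 ± 0.06 with both compounds over DMSO (adjusted p = 0.0477), the latter missing 0.05 in 14 alternative fits, which included those without any 1 library of DMSO or of both compounds, EpA replicate 1 or fatostatin replicate 1 or 2 (highest adjusted p = 0.131). Ppp1r15a, the GADD34 gene, whose product returns eIF2α to its unphosphorylated form, ranged from 6.55 to 9.50 FPKM and did not pass; its nearest estimate was 0.22 (interval 0.05 to 0.39, adjusted p = 0.0511) for both compounds against fatostatin.

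**Figure D4:**
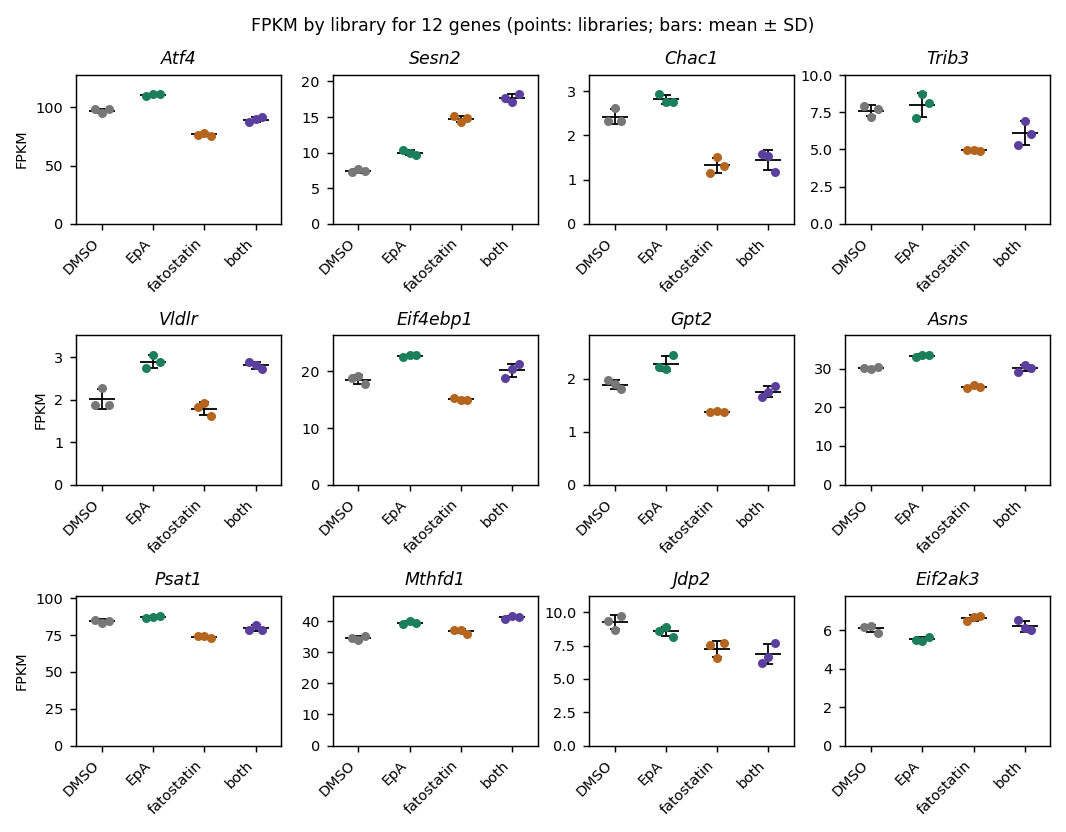
FPKM in each library (points) with group mean ± SD (bars; n = 3) for 12 of the genes, each panel with its own axis from 0. Sesn2 climbs from a mean of 7.44 in DMSO to 17.6 with both compounds, while Chac1 drops from 2.42 in DMSO to 1.32 with fatostatin and Vldlr is high only in the 2 groups with EpA.

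The serine synthesis enzymes were abundant, and fatostatin lowered the later ones, Psat1 and Psph. Phgdh, the first and committed enzyme, was the member with the highest level, with group means of 159 to 166 FPKM, and did not pass in any comparison (interval for fatostatin against DMSO -0.12 to -0.01, adjusted p = 0.118); it has a pseudogene, Phgdh-ps1, that could share reads. Psat1, the aminotransferase of the second step, was 84.6 ± 1.1 FPKM in DMSO (mean ± SD, n = 3), 87.2 ± 0.9 in EpA, 73.8 ± 0.8 with fatostatin and 79.8 ± 2.0 with both compounds. It fell by 0.20 ± 0.02 with fatostatin (adjusted p = 6.11e-05) and by 0.13 ± 0.02 when fatostatin was added to EpA (adjusted p = 0.00127), and it rose by 0.11 ± 0.02 when EpA was added to fatostatin (adjusted p = 0.0015). EpA alone gave 0.04 ± 0.02, which did not pass (adjusted p = 0.136), and the difference between these EpA effects did not pass either (0.07 ± 0.03, adjusted p = 0.586). Psph, the phosphatase that releases serine, was 16.2 ± 0.2 FPKM in DMSO, 17.6 ± 0.1 in EpA, 13.9 ± 0.5 with fatostatin and 16.7 ± 0.6 with both compounds. It rose with EpA (0.12 ± 0.03, adjusted p = 0.0163), fell with fatostatin (-0.22 ± 0.03, adjusted p = 0.000849) and rose when EpA was added to fatostatin (0.27 ± 0.03, adjusted p = 9.49e-05). Fatostatin added to EpA gave -0.07 ± 0.03, which did not pass (adjusted p = 0.161). The first of these missed 0.05 without DMSO replicate 1 or EpA replicate 1 (highest adjusted p = 0.0571), and 10.4% of the exon bases of Psph are shared with Cct6a.

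In folate one-carbon metabolism the cytosolic enzymes Shmt1 and Mthfd1 rose with EpA. Mthfd1, the trifunctional enzyme that interconverts folate-bound carbon, had FPKM values of 34.4, 33.8 and 35.3 in DMSO, 39.2, 39.9 and 39.4 in EpA, 37.0, 37.2 and 35.97 with fatostatin and 40.7, 41.7 and 41.3 with both compounds. The 4 groups did not overlap, and DMSO was the lowest. The log2 change was 0.20 ± 0.02 with EpA (adjusted p = 5.18e-05), 0.09 ± 0.02 with fatostatin (adjusted p = 0.0157) and 0.26 ± 0.02 with both compounds (adjusted p = 3.57e-06); the change with fatostatin missed 0.05 without DMSO replicate 1 or 2 or fatostatin replicate 1 or 2 (highest adjusted p = 0.0667). Shmt1, which splits serine into glycine and a one-carbon unit in the cytosol, was 19.2 ± 0.6 FPKM in DMSO, 22.1 ± 0.5 in EpA, 18.9 ± 0.3 with fatostatin and 21.6 ± 0.3 with both compounds. EpA raised it by 0.20 ± 0.03 without fatostatin (adjusted p = 0.000248) and 0.19 ± 0.03 with it (adjusted p = 0.000302), and the interval for fatostatin alone was -0.08 to 0.04.

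The mitochondrial enzymes differed among themselves. Shmt2, the mitochondrial counterpart of Shmt1, was 113.1 ± 2.3 FPKM in DMSO, 119.7 ± 2.4 in EpA, 97.3 ± 1.7 with fatostatin and 107.2 ± 3.1 with both compounds. It fell with fatostatin (-0.22 ± 0.03, adjusted p = 0.000166) and when fatostatin was added to EpA (-0.16 ± 0.03, adjusted p = 0.00150), and rose with EpA by 0.08 ± 0.03 (adjusted p = 0.0352), which missed 0.05 in 7 alternative fits, 4 of them leaving out DMSO replicate 2 or 3 or EpA replicate 1 or 2 (highest adjusted p = 0.127). Mthfd2, the dehydrogenase of the mitochondrial route, was 28.5 ± 0.6 FPKM in DMSO and 29.0 ± 1.6 in EpA, and 26.04 ± 0.55 with fatostatin and 25.1 ± 0.8 with both compounds. It fell by 0.21 ± 0.04 when fatostatin was added to EpA (adjusted p = 0.00383) and by 0.13 ± 0.04 with fatostatin alone (adjusted p = 0.0455), the latter missing 0.05 in 11 alternative fits, among them those without any 1 of the DMSO or of the fatostatin libraries (highest adjusted p = 0.148). Mthfd1l, which makes formate for export to the cytosol, rose with EpA by 0.09 ± 0.02 (adjusted p = 0.00148) without fatostatin and 0.06 ± 0.02 (adjusted p = 0.0132) with it, the latter missing 0.05 without fatostatin replicate 3 (adjusted p up to 0.0506). Aldh1l2, which oxidizes the one-carbon unit to carbon dioxide, lay between 0.251 and 0.472 FPKM and did not pass.

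Gpt2 and Asns rose with EpA and fell with fatostatin, as Atf4 did. Gpt2 encodes the mitochondrial alanine aminotransferase, and its FPKM was 1.98, 1.90 and 1.80 in DMSO, 2.23, 2.18 and 2.46 in EpA, 1.38, 1.40 and 1.37 with fatostatin and 1.66, 1.76 and 1.86 with both compounds. The EpA libraries were the 3 highest and the fatostatin libraries the 3 lowest. The log2 change was 0.26 ± 0.07 with EpA (adjusted p = 0.0160), -0.43 ± 0.07 with fatostatin (adjusted p = 0.00170), -0.36 ± 0.07 when fatostatin was added to EpA (adjusted p = 0.00452) and 0.33 ± 0.07 when EpA was added to fatostatin (adjusted p = 0.00441); the first missed 0.05 without DMSO replicate 3 or EpA replicate 3 (highest adjusted p = 0.0683).

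Asns, asparagine synthetase, is a gene in which the response element has been studied closely, and its values in every library are given for that reason, a choice made after its values were seen. Its FPKM was 30.2, 29.8 and 30.4 in DMSO, 33.1, 33.56 and 33.54 in EpA, 25.12, 25.7 and 25.14 with fatostatin and 29.3, 31.0 and 30.2 with both compounds. The group with both compounds lay on the DMSO group (0.00, interval -0.05 to 0.05), between EpA above and fatostatin below. Asns rose by 0.15 ± 0.02 with EpA (adjusted p = 0.000594) and by 0.25 ± 0.02 when EpA was added to fatostatin (adjusted p = 1.01e-05), and it fell by 0.25 ± 0.02 with fatostatin (adjusted p = 2.37e-05) and by 0.15 ± 0.02 when fatostatin was added to EpA (adjusted p = 0.00119).

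Got1, the cytosolic aspartate aminotransferase, was 39.8 ± 1.2 FPKM in DMSO, 46.4 ± 1.4 in EpA, 41.1 ± 0.4 with fatostatin and 47.0 ± 1.4 with both compounds, and so separated the libraries by EpA alone: 0.22 ± 0.03 without fatostatin (adjusted p = 0.000256) and 0.19 ± 0.03 with it (adjusted p = 0.000595), with an interval for fatostatin of -0.02 to 0.11. Aldh18a1, the first enzyme from glutamate to proline, was 42.6 ± 1.1 FPKM in DMSO, 42.4 ± 0.9 in EpA, 37.5 ± 0.5 with fatostatin and 39.0 ± 1.6 with both compounds. It fell by 0.18 ± 0.03 with fatostatin (adjusted p = 0.00191) and by 0.12 ± 0.03 when fatostatin was added to EpA (adjusted p = 0.0197), the latter missing 0.05 without EpA replicate 1 or 2 or replicate 2 of both compounds (highest adjusted p = 0.0729). Pycr1, the last step of proline synthesis, ranged from 2.63 to 3.40 FPKM and did not pass, with an estimate for EpA of -0.17 (interval -0.33 to -0.02, adjusted p = 0.0998).

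In the methionine cycle, Ahcy, which clears S-adenosylhomocysteine, was 93.8 ± 1.2 FPKM in DMSO, 102.9 ± 1.1 in EpA, 88.3 ± 1.5 with fatostatin and 100.1 ± 1.8 with both compounds. It rose with EpA by 0.13 ± 0.02 without fatostatin (adjusted p = 0.000369) and 0.18 ± 0.02 with it (adjusted p = 3.49e-05), and fatostatin alone gave -0.09 ± 0.02 (adjusted p = 0.0102). Mat2a, which makes S-adenosylmethionine, fell by 0.07 ± 0.02 with fatostatin (adjusted p = 0.0301) and by 0.08 ± 0.02 when fatostatin was added to EpA (adjusted p = 0.0185). These small changes missed 0.05 in 9 and 6 of the 22 alternative fits, and among single libraries without DMSO replicate 1 or 2 or any 1 fatostatin library, and without EpA replicate 2 or 3 or replicate 2 of both compounds (highest adjusted p = 0.104 and 0.0728). Of the exon bases of Mat2a, 11.3% are shared with Particl on the opposite strand.

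Cth, the enzyme that releases cysteine at the end of transsulfuration, had FPKM values of 1.47, 1.72 and 1.58 in DMSO, 1.41, 1.65 and 2.2001 in EpA, 1.10, 1.12 and 1.22 with fatostatin and 1.83, 1.47 and 1.94 with both compounds. The 3 fatostatin libraries were the lowest of the 12. The rise when EpA was added to fatostatin was 0.56 ± 0.15 (adjusted p = 0.0136), which missed 0.05 without replicate 3 of both compounds (adjusted p = 0.0545) and reached 1.5-fold without replicate 2 of both compounds. The drop with fatostatin alone, -0.44 (interval -0.76 to -0.11), did not pass (adjusted p = 0.0734). Cbs, the enzyme before it, was near the limit of detection, with 0.0584 to 0.209 FPKM from 16 to 65 reads a library, and did not pass. Its largest estimate was 0.55 for both compounds against DMSO (interval 0.09 to 1.01, adjusted p = 0.0640). Over the alternative fits this ran from 0.11 to 1.02 and passed in some. The mean of Cbs over the 12 libraries, 0.115 FPKM, was just above the filter of 0.1. Group means were 0.0811 in DMSO, 0.117 in EpA, 0.0991 with fatostatin and 0.165 with both compounds. The filter thus leaned on the group with both compounds, and this estimate gives no support for a rise there.

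The 95 further genes of the same pathways that were looked at, of which 88 were tested, are given by their counts. EpA raised 34 and lowered 5 of them without fatostatin and raised 39 and lowered 4 with it, where 14.3% and 13.1% of all tested genes were higher and lower in the first comparison and 16.2% and 13.3% in the second. The medians were 0.08 and 0.10. Fatostatin lowered 20 and raised 5 alone and lowered 21 and raised 12 when added to EpA, where 6.31% and 7.69% of all genes were lower and higher in the first comparison and 6.79% and 9.22% in the second, with medians of -0.04 and -0.03. Among 10 tested amino acid transporters, EpA raised 2 and lowered 2 without fatostatin, and raised 2 and lowered 1 with it. Fatostatin lowered 3 and raised 0 of them when given alone, and lowered 3 and raised 1 when added to EpA. Slc1a4, which carries serine and alanine, was 4.54 ± 0.21 FPKM in DMSO and 3.03 with fatostatin, a change of -0.57 ± 0.07 (adjusted p = 0.000266). The other 2 that fatostatin alone lowered were Slc7a5 (-0.28 ± 0.02, adjusted p = 3.06e-06) and Slc3a2 (-0.18 ± 0.03, adjusted p = 0.00115), the light and heavy chains of the leucine transporter, named after their values were seen.

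Of 21 further stress response genes, EpA raised 10 and lowered 1 (all genes 14.3% and 13.1%), and fatostatin lowered 11 and raised 1 (all genes 6.31% and 7.69%). Of these genes 11 encode aminoacyl-tRNA synthetases, which load amino acids onto tRNAs, a split made after the values were seen. The synthetases were 9 of the 11 genes that fatostatin lowered (Nars1, Aars1, Gars1, Sars1, Yars1, Mars1, Iars1, Cars1 and Tars1), with the largest drop in Cars1 (-0.33 ± 0.03, adjusted p = 2.48e-05), and EpA raised 3 of them (Gars1, Mars1 and Iars1) and lowered 1 (Wars1). Of the other 10 genes, fatostatin lowered Gadd45b and Ero1a, and EpA raised 7. The one that fatostatin raised was Atf3, an ATF4-induced factor of the same family, with group means of 12.8 FPKM in DMSO, 15.7 in EpA, 16.5 with fatostatin and 23.2 with both compounds. Like Sesn2 it rose with each compound and most with both: 0.30 ± 0.04 with EpA (adjusted p = 0.000251), 0.37 ± 0.04 with fatostatin (adjusted p = 0.000101) and 0.86 ± 0.04 with both (adjusted p = 3.60e-08). Ddit4, which encodes the mTORC1 inhibitor REDD1, was among the EpA rises, at 160.6 FPKM in DMSO, 230.5 in EpA, 171.5 with fatostatin and 258.3 with both compounds (0.52 ± 0.05 with EpA, adjusted p = 2.17e-05). Vegfa, the gene of an angiogenic growth factor, rose by 0.50 ± 0.05 with EpA (adjusted p = 1.32e-05) and by 0.69 ± 0.05 when EpA was added to fatostatin (adjusted p = 9.59e-07).

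Among 19 tested users and enzymes of the folate cycle, EpA raised 8 and lowered 1 (all genes 14.3% and 13.1%). Fatostatin raised 1 and lowered 2, shares near those of all genes (7.69% and 6.31%). Ggh, the hydrolase that trims folate polyglutamates, was among these, with changes of -0.25 ± 0.05 (adjusted p = 0.00483) with EpA and 0.21 ± 0.05 (adjusted p = 0.0193) with fatostatin.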

How the data were processed

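Per the labels and the study's methods, reads from TruSeq libraries were trimmed, aligned to GRCm38 with HISAT2 and counted per gene by the authors, who deposited 1 FPKM table for the 12 libraries; annotation release and strand setting are not given in the sources used here. Repeated lines (301, identical) were dropped, and 0 columns belonged to no sample. Exon lengths (GENCODE M21) gave back whole reads, within 0.02, for 98.0 to 98.3% of low values, so each library's depth is known. The 4 groups were fitted in 1 limma model (limma 3.58.1, R 4.3.3) on log2(FPKM + 0.1) with an intensity trend, two-sided, checked on simulated data. Passing was an adjusted p under 0.05, and calling a further 1.5-fold change. The 36 genes, other lists and tests were chosen with earlier results of these data known. Values in every library are given for called members and for the 3 largest passing changes per direction and comparison, with Atf4 and Asns added after their values were seen; further genes are the 2 largest. Alternatives covered pseudocount, filter, scaling, groups fitted, trend, block, voom on recovered reads, fold threshold and each library left out.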

Additional observations from a re-analysis of the deposited data

How the results depend on the processing

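In 22 alternative fits, 60 of the 81 passing values of the members kept passing in every one, 21 missed 0.05 in at least 1, and 0 turned direction. Of the 135 other values, 35 changed sign somewhere and 14 passed somewhere. Members higher with EpA were 12 to 14 over all alternatives, and 15 to 18 in the presence of fatostatin. Members lower with fatostatin were 11 to 15, and 8 to 13 in the presence of EpA. The counts that moved by over 1.5 times follow. For EpA against DMSO, members lower were 0 to 1 and members at 1.5-fold 0 to 1 over the left-out libraries (Eif2ak3 was lost without DMSO replicate 1 or 2 or EpA replicate 1 or 2, and Vldlr was gained without DMSO replicate 2). Members higher with fatostatin were 1 to 2 over the left-out libraries (Mthfd1 was lost without DMSO replicate 1 or 2 or fatostatin replicate 1 or 2) and members higher with both compounds against EpA 1 to 2 (Eif2ak3 was lost without EpA replicate 1 or 2 or replicate 1 of both compounds); with only the groups compared, each count was 1. Members lower with both compounds against fatostatin were 0 with all genes above 0, only the groups compared, no intensity trend, voom on recovered reads or the replicate block, and 0 to 2 over the left-out libraries. For the same comparison, members at 1.5-fold were 0 with a pseudocount of 1, 2 with a pseudocount of 0.01, TPM or voom, where Cth joined Vldlr, and 1 to 2 over the left-out libraries. With a pseudocount of 1, members at 1.5-fold were 1 for fatostatin against DMSO and 1 for both compounds against DMSO. A fold threshold of 1.2 gave 3 members for EpA against DMSO (10.9% of all genes), 7 for fatostatin against DMSO (5.27%), 6 for both compounds against EpA (6.17%), 6 for both compounds against fatostatin (12.3%) and 5 for both compounds against DMSO (16.5%). The cause of these moves was not tested. Replicate numbers did not pair the samples: same-numbered libraries deviated together with correlations of -0.088 to 0.113, and with the replicate block 13 members were higher with EpA and 12 lower with fatostatin. Depth limits Cbs, Nupr1, Cebpb, Aldh1l2 and Chac1, which had as few as 16 to 79 reads in a library.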

Other observations

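Among 14 genes of eIF2, its exchange factor eIF2B and their regulators, EpA raised 6 and lowered 0 without fatostatin, and raised 6 and lowered 0 with it, where 14.3% and 13.1% of all tested genes were higher and lower in the first comparison and 16.2% and 13.3% in the second. The medians were 0.09 and 0.10. All 3 eIF2 subunits were among them in both comparisons, named after their values were seen: Eif2s1, the subunit that is phosphorylated, rose by 0.21 ± 0.03 (limma adjusted p = 0.000142) and 0.17 ± 0.03 (adjusted p = 0.000549), Eif2s2 by 0.28 ± 0.02 and 0.22 ± 0.02, and Eif2s3x by 0.24 ± 0.04 and 0.22 ± 0.04. Ppp1r15b, the constitutive partner of the eIF2α phosphatase, fell with fatostatin by 0.13 ± 0.03 (adjusted p = 0.0107).

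Among 24 further genes of the methionine cycle, polyamines and other synthesis, EpA raised 8 and lowered 1 without fatostatin and raised 11 and lowered 1 with it, beside the same shares of all genes. The medians were 0.02 and 0.05, and 14 and 16 of the 24 were above 0. Odc1, the first enzyme of polyamine synthesis, had group means of 142.03 FPKM in DMSO, 200.1 in EpA, 147.9 with fatostatin and 231.3 with both compounds. It rose by 0.49 ± 0.02 with EpA (adjusted p = 7.18e-09) and 0.65 ± 0.02 when EpA was added to fatostatin (adjusted p = 8.77e-10). Fatostatin raised 3 and lowered 1 of the 24 when given alone (all genes 7.69% and 6.31%). Added to EpA, it raised 7 and lowered 2 (all genes 9.22% and 6.79%). Ahcyl2, a relative of Ahcy, rose with fatostatin by 0.31 ± 0.03 (adjusted p = 0.000106), while Pck2, the mitochondrial phosphoenolpyruvate carboxykinase, fell by 0.20 ± 0.04 (adjusted p = 0.00694). Of the 88 further genes tested, 4 were called at 1.5-fold when EpA was added to fatostatin, where 3.75% of all tested genes were called. Gadd45b, a stress gene outside the naming rule and chosen after its values were seen, was among them (0.63 ± 0.04, adjusted p = 1.44e-06), with Vegfa, Ddit4 and Odc1.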
